A study of Mus musculus with 16 samples.

Results

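Genes of cholesterol synthesis and their regulator SREBP2 were followed in mice carrying an altered Ppargc1a allele. The members were chosen by symbol, as genes with a row in both tables of the study, and 7 of 16882 genes qualified: Srebf2, Idi1, Fdps, Fdft1, Sqle, Lss and Cyp51. Hmgcs1 was also on the list of 8 symbols and is not analysed here. Male C57BL/6 mice, 10 weeks of age and housed at room temperature, were either homozygous for the allele labelled uORF-TAA or wild-type littermates. A uORF is an upstream open reading frame, a short one placed before the protein's own, TAA is a stop codon, and Ppargc1a encodes the transcriptional coactivator PGC-1alpha. The mRNA of quadriceps muscle and of brown adipose tissue was sequenced, with 16 libraries in all, 4 for every genotype and tissue. The design text gives 4 mice of each genotype, as many as there are libraries of a genotype in each tissue, and no label ties a muscle library and a fat library to one mouse.

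Cells make cholesterol from acetyl-CoA through mevalonate, isoprenoid diphosphates, squalene and lanosterol. SREBP2, the product of Srebf2, is a membrane-bound transcription factor of the endoplasmic reticulum that is escorted by SCAP, held back by INSIG proteins when sterols are plentiful, and cut by proteases in the Golgi when sterols run low. The released fragment switches on the genes of the pathway and of lipoprotein uptake, and these mRNAs therefore often move together when cellular sterol changes. In muscle and brown fat the same pathway also supplies ubiquinone for the respiratory chain and lipid groups for protein prenylation.

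For each tissue the authors deposited a comparison of the genotypes, with a mean normalized count over the 8 libraries, a log2 fold change with its standard error (SE), a Wald statistic (the fold change over its SE), a p-value and an adjusted p. A positive fold change here means a higher level in uORF-TAA. This takes the genotype named first in each table as the numerator, which no header states, and the sign of the brown fat table was turned accordingly. A gene was called changed at an adjusted p under 0.05. The fold changes behave as shrunken towards 0, strongly at low counts and also in some abundant genes. The largest SE of any gene was 0.135 in quadriceps and 0.127 in brown fat. Among the members, Lss in quadriceps and Sqle in brown fat lay at or near it. The 95% intervals below are on that shrunken scale and understate the uncertainty. They set no bound on the unshrunken change. Estimated library depth was 11.4 to 31.8 M counts (M, mega) in quadriceps, and 11.0 to 17.8 M in brown fat. No library totals were read, so these depths assume equal normalized totals within a tissue. The labelled tissues carried their markers. Ucp1, the uncoupling protein of brown fat, had a mean normalized count of 47561 in brown fat and 6.70 in quadriceps in the authors' deposited table, and the 10 muscle markers were also present in brown fat, at means between 2478 and 42699. The mutated gene Ppargc1a had log2 fold changes of 0.058 ± 0.13 (SE) in quadriceps and 0.0016 ± 0.11 (SE) in brown fat in the authors' deposited table, with an adjusted p of 1.00 from DESeq2 in each.

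None of the 7 members was called between genotypes in either tissue. In quadriceps 0 of 7 passed by the deposited DESeq2 test, against 0% of the 17521 genes tested, and 0 had an unadjusted p under 0.05, against 2.00% of genes. In brown fat 0 passed of the 6 members with an adjusted p, against 0.0863% of the 9272 genes tested. No member there had an unadjusted p under 0.05, against 2.07% of the 17973 genes with a p-value. Idi1 has no adjusted p in brown fat, since that table adjusted only genes with a mean normalized count of at least 105.6. The largest Wald statistics of members, in size, were 0.75 for Lss in quadriceps and -1.66 for Cyp51 in brown fat, while the 8 genes called in brown fat reached at least 4.18. The members' log2 fold changes spanned -0.063 to 0.10 in quadriceps, and -0.21 to 0.11 in brown fat. Their medians were -0.015 and -0.034, beside 0.0024 and 0.0015 over all genes with a p-value. By sign, 3 of 7 members were above 0 in quadriceps, against 51.7% of genes, and 2 of 7 in brown fat, against 51.2%. If the brown fat sign is left as deposited, that count is 5 of 7, against 48.8%, and every direction given below for brown fat turns with it.

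**Figure D1:**
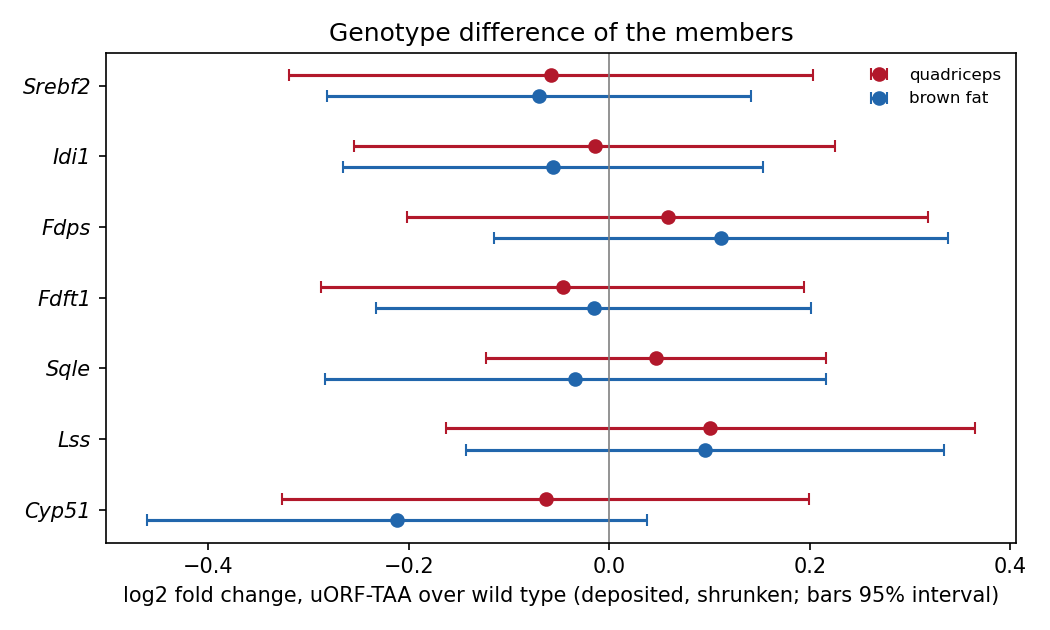
Log2 fold change of uORF-TAA over wild type (x axis) of the 7 members in quadriceps (red) and brown fat (blue), from the authors' deposited tables. Points are the deposited estimates and bars their 95% intervals on the shrunken scale; all 14 intervals include 0, and the interval of Cyp51 in brown fat lies farthest to the left.

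Srebf2, the regulator, had a mean normalized count of 160 in quadriceps and 495 in brown fat in the authors' deposited table. Its log2 fold changes there were -0.058 ± 0.13 (SE) and -0.070 ± 0.11 (SE). The 95% intervals on the shrunken scale were -0.32 to 0.20 in quadriceps, and -0.28 to 0.14 in brown fat. Reductions or increases within those ranges are not excluded, and the ranges set no bound on the unshrunken change. The protein is controlled mainly by cleavage, which an mRNA level does not measure.

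Idi1 and Fdps act in the isoprenoid part of the pathway. Idi1, the isomerase that interconverts the isoprenoid building blocks, had log2 fold changes of -0.015 ± 0.12 (SE) in quadriceps and -0.057 ± 0.11 (SE) in brown fat in the authors' deposited table. Fdps, farnesyl diphosphate synthase, stands where the pathway divides between sterols and prenyl groups. The authors' deposited table gave Fdps 0.058 ± 0.13 (SE) in quadriceps and 0.11 ± 0.12 (SE) in brown fat, the highest value of a member in that tissue. Its brown fat interval ran from -0.11 to 0.34.

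Fdft1 and Sqle start the sterol-specific steps. Fdft1, squalene synthase, had log2 fold changes of -0.047 ± 0.12 (SE) in quadriceps and -0.016 ± 0.11 (SE) in brown fat in the authors' deposited table. Sqle, squalene epoxidase, is a rate-limiting enzyme of the later pathway. In the authors' deposited table it had 0.047 ± 0.086 (SE) in quadriceps and -0.034 ± 0.13 (SE) in brown fat. The small SE in quadriceps belongs to a gene with 51 reads in all 8 libraries together and is on the shrunken scale.

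Lss and Cyp51 close and trim the sterol ring. Lss, lanosterol synthase, had the highest member value of quadriceps, a log2 fold change of 0.10 ± 0.13 (SE), and 0.095 ± 0.12 (SE) in brown fat in the authors' deposited table. Cyp51, the lanosterol demethylase, had -0.063 ± 0.13 (SE) in quadriceps and -0.21 ± 0.13 (SE) in brown fat in the authors' deposited table. The brown fat value had the smallest p of any member, an unadjusted p of 0.0967 by the DESeq2 Wald test and an adjusted p of 1.00. Its 95% interval ran from -0.46 to 0.038.

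The genotype effects of the tissues were then compared gene by gene. None of the 7 members differed between tissues when the difference of their fold changes was tested against its SE (two-sided normal p), where 0% of 16844 genes passed an adjusted p of 0.05. At an unadjusted p under 0.05 there were again 0 members, against 1.16% of genes. Differences (quadriceps less brown fat) ran from -0.053 for Fdps to 0.15 for Cyp51. If the brown fat sign is left as deposited, they ran from -0.27 for Cyp51 to 0.20 for Lss, again with 0 members passing. Under the assumed reading the 95% interval for Cyp51 was -0.21 to 0.51 on the shrunken scale. Differences of either sign within that range are not excluded, and the range sets no bound on the unshrunken difference. Signs were the same in both tissues for 6 of 7 members, beside 54.9% of all genes, with Sqle as the exception. If the brown fat sign is left as deposited, the signs were the same for 1 of 7, Sqle, beside 45.1% of all genes, so no likeness of the tissues is read from these counts. The test treats the tissues as independent, and whether they share mice was not modelled.

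Levels differed far more between the members than between genotypes. To compare genes, mean normalized counts were divided by transcript length in kilobases. In quadriceps Fdft1 stood highest at 653 counts per kb, followed by Fdps at 101, Cyp51 at 35.5, Srebf2 at 31.5, Lss at 8.33, Idi1 at 4.34 and Sqle at 2.28. The order in brown fat was Fdft1 at 1623 counts per kb, Fdps at 165, Cyp51 at 117, Srebf2 at 97.5, Sqle at 42.5, Lss at 36.4 and Idi1 at 4.38. Sqle was last in quadriceps and stood above Lss and Idi1 in brown fat, while the other 6 members kept their order among themselves. Fdft1 lay at percentile 91.8 of all genes per kb in quadriceps and 96.8 in brown fat, and made up 78.1% and 77.8% of the members' summed counts per kb. Above the median gene of the tissue stood 3 of 7 members in quadriceps and 5 of 7 in brown fat. Some members stood close to it: Srebf2 and Cyp51 at percentiles 49.8 and 51.5 in quadriceps, and Lss and Sqle at 48.6 and 50.6 in brown fat. No difference between tissues is read from these counts. The spread over libraries is not known for most members, so neighbours in the order, such as Cyp51 and Srebf2, were not tested against each other.

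**Figure D2:**
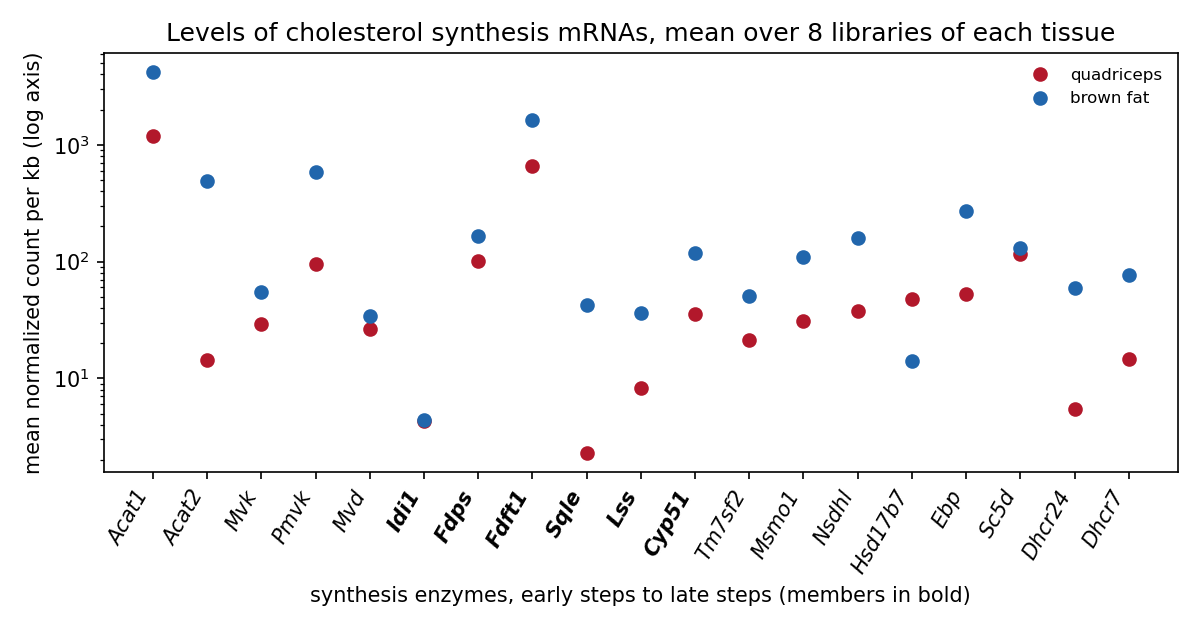
Mean normalized count per kb of transcript (log y axis) of the members (bold) and other synthesis enzymes, ordered from early to late steps, in quadriceps (red) and brown fat (blue). Each point is a mean over the 8 libraries of a tissue with no spread available; Idi1 is low in both tissues, Fdft1 is the highest member in both, and Hsd17b7 is the one enzyme plotted that is lower in brown fat.

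All 7 members took a larger share of the brown fat transcriptome than of the quadriceps transcriptome. The share is the count per kb for each M of counts per kb summed over the genes of the tissue, and the tables were normalized separately, so no test was made. The ratio of brown fat to quadriceps had a median of 3.99 over the members, from 1.30 for Idi1 to 24.0 for Sqle. Among the 11213 genes whose mean reached 10 in both tissues the median ratio was 1.61, and 68.1% of them were higher in brown fat. For Sqle the share was 0.303 in quadriceps and 7.26 in brown fat. Among the other synthesis enzymes the ratio spanned 0.375 for Hsd17b7 to 44.0 for Acat2, the cytosolic thiolase, and 20 of the 21 genes (the members and the other enzymes) were higher in brown fat.

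Reads in single libraries could be recovered for members with a mean normalized count under 15. Such a mean is a sum of whole reads, each worth a fixed amount in its library, and only one combination of reads gave the deposited value to its last digits. The libraries are ordered by estimated depth and carry no genotype. Sqle in quadriceps had 10, 6, 13, 5, 4, 0, 9 and 4 reads from the deepest library to the shallowest. These are normalized counts from 0 to 12.1 with a median of 5.66. The library with 0 reads allows a normalized count of up to 2.95 (3 reads over its size factor, for counting error only). So Sqle was seen in 7 of 8 quadriceps libraries, and at this depth single reads decide its level.

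Idi1 was detected in every library of both tissues. In quadriceps it had 19, 22, 18, 12, 11, 8, 13 and 7 reads from the deepest library to the shallowest, or normalized counts from 7.86 to 17.1 with a median of 12.7. In brown fat the reads were 14, 23, 14, 15, 14, 13, 10 and 5, with normalized counts from 5.82 to 20.1 and a median of 13.4. The ranges overlap on scales that were normalized separately. The totals were 110 and 108 reads. The estimated library depths summed to 176 M counts in quadriceps and 104 M in brown fat, which gives 0.626 and 1.04 reads for each M counts.

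**Figure D3:**
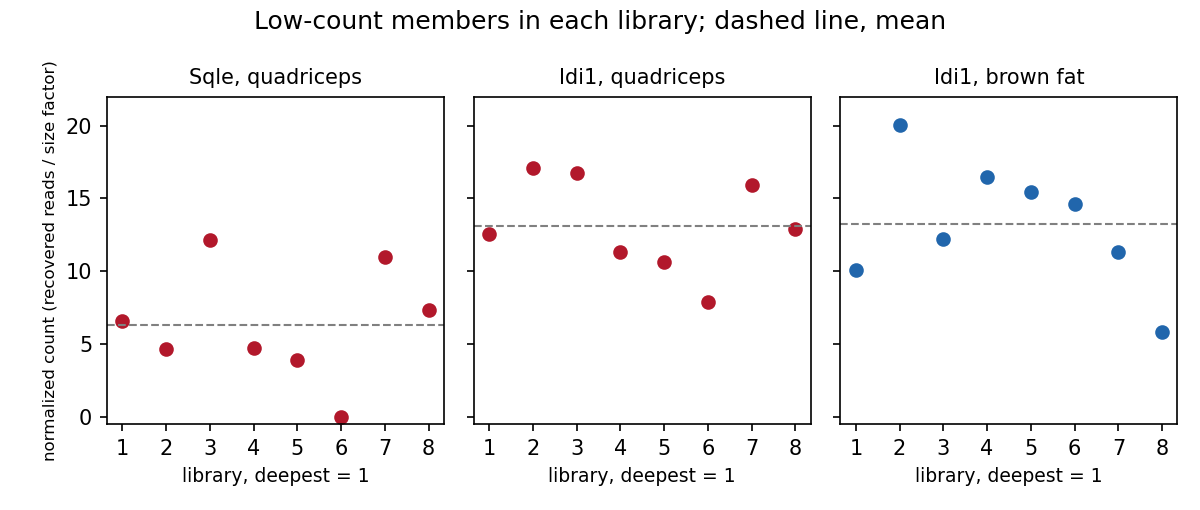
Normalized counts (recovered reads over size factor, y axis) of Sqle and Idi1 in each of 8 libraries per tissue, ordered from the deepest; dashed lines are the means. Libraries are not assigned to genotypes; Sqle ranges from 0 to 12.1 in quadriceps, and Idi1 spans 7.86 to 17.1 there against 5.82 to 20.1 in brown fat.

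Some of these levels rest on reads that could belong to other genes, since no source used here gives the read counter or its use of strand. In the GENCODE M21 annotation the exons of Fdft1 overlap those of Ctsb on the opposite strand, over up to 774 bases. Ctsb, which encodes the lysosomal protease cathepsin B, had mean normalized counts of 4769 in quadriceps and 23323 in brown fat in the authors' deposited table. Without strand, reads from the overlap cannot be assigned to either gene, and their part in the level of Fdft1 was not tested. The log2 fold change of Ctsb was 0.044 in quadriceps, against 0.063 in brown fat, in the authors' deposited table, opposite in sign to Fdft1 and likewise not called. Cyp51 overlaps Akap9 on the opposite strand over up to 166 bases. Akap9, a scaffold gene, had a log2 fold change of -0.015 in quadriceps, against -0.051 in brown fat, in the authors' deposited table. Other overlaps, by the longest shared stretch of exon, join Fdps to Gm43738 on the same strand (197 bases). Idi1 is joined to Gm48574 (323 bases) and Lss to 4930483K19Rik (150 bases), both on the opposite strand. The transcripts of Fdps and Gm43738, annotated as protein coding, are identical over 929 bases in all. Strand cannot part reads of these genes, and the part of Gm43738 in the level of Fdps was not tested.

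Processed pseudogenes are a second limit for the isoprenoid enzymes. The Idi1 transcript matched 2 annotated pseudogenes over at least 75 bases at 95% identity or more, one of them identical over 684 bases. Fdps matched 5 pseudogenes, the closest at 98.9% identity over 1062 bases, and Fdft1 matched 1. Srebf2, Sqle, Lss and Cyp51 matched none. Reads that fit several places may have been dropped or split, so the low level of Idi1 is uncertain, and the part of these copies was not tested.

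Promoter windows from RefSeq, on build GRCm38.p6 and not the mm9 build named by the submitters, were searched because these genes share a regulator. A window holds 250 bases before and 50 after a start site, and windows were found for 4 members: Srebf2, Idi1, Lss and Cyp51. Fdps, Fdft1 and Sqle had no entry. The sterol regulatory element form TCACNCCAC occurred on either strand in 0 of the 4 windows, and in 1.24% of 32851 windows of the same length. The NF-Y box CCAAT, which SREBP proteins often have as a neighbour, occurred in 4 of 4, against 37.4% of windows, and the Sp1 box GGGCGG in 4 of 4, against 35.7%. The NF-Y matches are shown in 30 bases of context, written on the gene's strand, with the match in capitals (CCAAT, or ATTGG where it lies on the other strand).
Srebf2, chr15:82147121-82147150, plus strand: gcttcgcgcgccgATTGGctaatgcaagcc
Idi1, chr13:8885548-8885577, plus strand: ttgcctccagctgATTGGcgagcccgggca
Idi1, chr13:8885579-8885608, plus strand: ggtccaaggtgccATTGGctggcgaccgac
Lss, chr10:76531530-76531559, plus strand: tggtgatgctctgATTGGccgagctcgcat
Cyp51, chr5:4104710-4104739, minus strand: ccgctgtccgccaCCAATctggtcctgaga
The match began 135 bases before the start site in Srebf2, 45 and 14 before in Idi1, 62 before in Lss and 29 before in Cyp51. A match describes letters only and shows no binding.

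The wider pathway was read from lists of genes with known roles. Of the 14 other synthesis genes, 0 were called in either tissue. In quadriceps 8 were above 0, against 51.7% of genes, with a median log2 fold change of 0.031. Of the 14, 1 had an unadjusted p under 0.05 there. This was Mvd, the mevalonate diphosphate decarboxylase, at 0.27 ± 0.13 (SE) with an adjusted p of 1.00 from DESeq2 in the authors' deposited table. In brown fat 12 of 14 were above 0, against 51.2% of genes, with a median of 0.047, and 2 of 14 if the sign is left as deposited. Acat2 had 0.27 ± 0.12 (SE) and Msmo1, the sterol methyl oxidase that follows Cyp51, had -0.22 ± 0.11 (SE) in brown fat in the authors' deposited table, each with an unadjusted p under 0.05 and an adjusted p of 1.00 from DESeq2.

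Genes of the SREBP control machinery, which escort, hold or cut the precursor, gave 0 calls among 10 in each tissue and 0 at an unadjusted p under 0.05. In quadriceps 9 of 10 were above 0, against 51.7% of genes, with a median log2 fold change of 0.064. The largest Wald statistic of the list there was 0.99 in size. In brown fat 5 of 10 were above 0, against 51.2% of genes, with a median of -0.00073. Srebf1, the related factor of fatty acid synthesis, had 0.13 ± 0.13 (SE) in quadriceps in the authors' deposited table. Scap, the escort, had 0.11 ± 0.10 (SE) in brown fat in the authors' deposited table.

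Uptake genes and other SREBP2 targets also gave 0 calls, with 5 genes present in each table. Lpin1, a phosphatidate phosphatase, had log2 fold changes of -0.022 ± 0.097 (SE) in quadriceps and -0.26 ± 0.13 (SE) in brown fat in the authors' deposited table, where it was the one gene of the list with an unadjusted p under 0.05. Lpin1, Msmo1 and Cyp51 were among the 4 lowest log2 fold changes of brown fat over the members and the 5 lists, under the assumed reading of that table.

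The isoprenoid branch and the genes of sterol efflux and storage completed the pathway, again with 0 calls. In brown fat 8 of the 8 isoprenoid genes with a row were above 0, against 51.2% of genes, with a median log2 fold change of 0.031, and 0 of 8 if the sign is left as deposited. In quadriceps 4 of 9 were above 0, against 51.7% of genes. Fntb, a subunit of farnesyltransferase, had 0.23 ± 0.11 (SE) in brown fat and -0.12 ± 0.12 (SE) in quadriceps in the authors' deposited table. Of 13 genes of LXR, efflux and storage, 4 were above 0 in quadriceps and 5 in brown fat, against 51.7% and 51.2% of genes. Cyp27a1, which hydroxylates cholesterol in mitochondria, had -0.22 ± 0.096 (SE) in quadriceps in the authors' deposited table and was the one gene of this list with an unadjusted p under 0.05 in either tissue. Npc1, which exports cholesterol from lysosomes, had -0.19 ± 0.13 (SE) in quadriceps and -0.20 ± 0.12 (SE) in brown fat in the authors' deposited table. Over the 5 lists together, 2 of 51 genes in quadriceps and 4 of 50 in brown fat had an unadjusted p under 0.05, beside 2.00% and 2.07% of all genes.

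**Figure D4:**
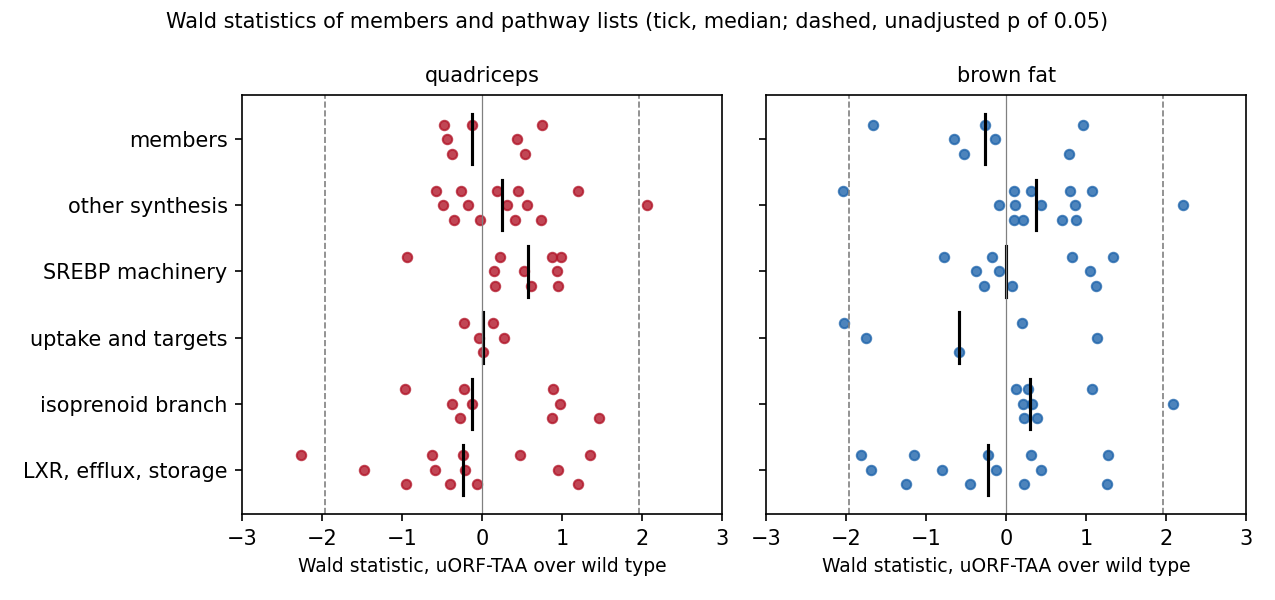
Wald statistics of uORF-TAA over wild type (x axis) for the members and 5 pathway lists in quadriceps (red) and brown fat (blue); black ticks are list medians and dashed lines mark an unadjusted p of 0.05. All 7 members lie between the dashed lines in both tissues, and 2 genes of the other lists in quadriceps and 4 in brown fat lie outside them.

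Schwann cells make much cholesterol for myelin, and both tissues can hold other cell types, so cell markers were read beside these values. Of all genes with a p-value, 51.7% lay above 0 in quadriceps and 51.2% in brown fat. Schwann cell markers lay below 0 for 10 of 10 genes in quadriceps and 8 of 10 in brown fat, with median log2 fold changes of -0.17 and -0.14. Of these 0 were called, though 4 of the 10 have no adjusted p in brown fat, and 1 of 10 in each tissue had an unadjusted p under 0.05, beside 2.00% and 2.07% of genes. General adipocyte markers lay above 0 for 6 of 7 genes in quadriceps and 7 of 7 in brown fat, with medians of 0.068 and 0.12, and 0 were called or had an unadjusted p under 0.05. Brown adipocyte markers lay above 0 for 6 of 7 genes in quadriceps and 7 of 7 in brown fat, with medians of 0.068 and 0.077, and 1 in each tissue was higher at an unadjusted p under 0.05. In quadriceps this was Ppargc1b, at 0.28 ± 0.13 (SE) with an unadjusted p of 0.0370 by the DESeq2 Wald test in the authors' deposited table. Ucp1 and Elovl3 had mean normalized counts of 6.70 and 5.62 in quadriceps, so the count of signs there does not measure brown adipocyte content. In brown fat the higher gene was Dio2, the deiodinase that activates thyroid hormone, at 0.48 ± 0.12 (SE) with an adjusted p of 0.0990 from DESeq2 in the authors' deposited table. Markers of mural cells, the smooth muscle cells and pericytes of vessels, lay below 0 for 4 of 6 genes in quadriceps, with a median of -0.19, and 3 of them were lower at an unadjusted p under 0.05. Among them Myh11, a smooth muscle myosin, had -0.35 ± 0.099 (SE) with an adjusted p of 0.660 from DESeq2 in the authors' deposited table. In brown fat 4 of 6 mural markers lay above 0, with a median of 0.11, and 0 had an unadjusted p under 0.05. With the brown fat sign left as deposited, 8 of 10 Schwann cell and 2 of 6 mural markers lay above 0 there. General adipocyte and brown adipocyte markers then lay above 0 for 0 of 7 genes each, against 48.8% of all genes. No likeness of the tissues is read from these counts. Alas2, the erythroid heme enzyme and the one blood marker with a row, had 0.020 ± 0.093 (SE) in quadriceps and 0.34 ± 0.13 (SE) in brown fat in the authors' deposited table, the latter with an unadjusted p of 0.00840. Endothelial, fibroblast and macrophage markers had medians of -0.0056, 0.045 and -0.0081 in quadriceps and 0.013, 0.079 and 0.00056 in brown fat, with 0 genes at an unadjusted p under 0.05. Hepatocyte markers had means of at most 8.52 in either tissue, and 1 of 3 in brown fat was lower at an unadjusted p under 0.05. The log2 fold changes of the 10 muscle markers in brown fat ran from -0.029 to 0.0066, with SEs of 0.053 to 0.076 beside a median SE of 0.10 over 847 genes of similar mean. These values are therefore on a strongly shrunken scale and do not show that muscle content was equal. The part of these markers in the members' values was not tested. In bulk tissue fewer cells of a type and less RNA per cell cannot be told apart.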

How the data were processed

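Quadriceps and brown fat RNA of 16 samples, 4 per genotype and tissue, was read from stranded mRNA libraries, single-end, per the labels' protocols. The submitters' processing notes name STAR 2.5.1b, mm9 and DESeq2 1.10.1, with no roles; no source used here gives the read counter, annotation or strand setting. Per the file headers, the authors deposited for each gene a mean normalized count (a signal over the libraries), a log2 fold change with its SE, a Wald statistic (a score), and a p-value with its adjusted p-value. No values per library were analysed beyond the reads recovered below. The series' design text gives 4 mice per genotype.

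Deposited tests were used as given, with 0.05 as the threshold of adjusted p; recomputed Wald statistics and Benjamini-Hochberg values matched the deposited ones to rounding. Intervals are the log2 fold change with a 95% normal range. The difference between tissues was divided by the root of the summed squared SE, with a two-sided normal p, adjusted over 16844 genes and treating the tissues as independent; shared mice were not modelled. Shrinkage was inferred from the SE, which fell to a median of 0.022 (quadriceps) or 0.018 (brown fat) where the mean was under 1.

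Size factors came from genes with 1 read in 1 library, at least 61 genes a library. A depth is the size factor times the summed means, which takes the normalized total as equal in all libraries of a tissue. Of 200 genes with means from 1 to 3 checked in each tissue, 100% had exactly 1 whole-read solution. Lengths are those of GENCODE M21 principal transcripts, found for 95.1% of quadriceps and 95.0% of brown fat genes, in place of the RefSeq transcripts first planned. Copies were searched with blastn 2.17.0. Named genes are the members, Ppargc1a, up to 3 genes of smallest p per list and tissue, and genes overlapping members. The overlapping genes, Hsd17b7 for its level, and Alas2, Dio2, Ppargc1b, Elovl3 and Myh11 among the cell markers were chosen after their values were seen. Ucp1 is named as a tissue marker. Some genes that the rule picks are left unnamed and are not reported here. The members and lists were chosen with earlier results of these data known. Likeness of patterns was not computed for want of values per library. Procedures were tested on simulated data. Analyses used Python 3.11.15 with pandas 2.3.3 and scipy 1.17.1.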

Additional observations from a re-analysis of the deposited data

How the results depend on the processing

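The count of members called stayed at 0 in both tissues with adjusted p thresholds of 0.10 and 0.01 and with adjustment over every gene with a p-value. It also stayed at 0 without genes whose mean was under 10, and with an empirical null. Over all genes the empirical null called 13 of 17521 in quadriceps and 46 of 17973 in brown fat. Calls over all genes were not counted for the other alternatives. With so few genes called, 0 among 7 is not read as a result about the members. Under that null, which rescales the Wald statistics to their own median and spread, Cyp51 in brown fat had an unadjusted p of 0.0307 and an adjusted p of 0.822, and 5.40% of all brown fat genes had an unadjusted p under 0.05. The count of pathway genes with an unadjusted p under 0.05 in brown fat rose from 4 to 7 with the empirical null, by the smaller null spread, and at an unadjusted p under 0.01 it was 0 in both tissues. The difference between tissues gave 0 members under its 3 alternatives, for which calls over all genes were not counted. With the numerator of the brown fat table exchanged, log2 fold changes there are 0.070 for Srebf2, 0.034 for Sqle, 0.016 for Fdft1, -0.11 for Fdps, 0.057 for Idi1, -0.095 for Lss and 0.21 for Cyp51, by construction. The counts of signs under that reading, added after seeing the data, are given for the members, the other synthesis genes and the isoprenoid genes. They are also given for the Schwann cell, adipocyte, brown adipocyte and mural markers. Without length, 4 members in quadriceps and 5 in brown fat lay above the median gene. The shorter motif CACNCCAC also occurred in 0 of the 4 members' windows, against 6.24% of all windows. No paired analysis was possible because the tables hold no values per library with a genotype, and leaving out single replicates was not run for the same reason. Depth limits Sqle in quadriceps and Idi1 in both tissues most, at 51 to 110 reads in all.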
